A study of Homo sapiens with 6 samples.

Results

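The cytosolic heat shock chaperones are described here by 10 genes, HSPA1A, HSPA1B, HSPA8, HSPH1, HSP90AA1, HSP90AB1, DNAJB1, HSPB1, BAG3 and HSF1, which were chosen by symbol out of 53826 entries measured per library. Each symbol occurred in 1 entry, and all 10 were among the 12412 entries that reached 5 TPM (a level scaled by transcript length and by the library total) in at least 1 library. The libraries were RNA-seq of PK-1 and of Panc-1, both long-established human lines grown from pancreatic ductal adenocarcinoma. The cells of a line were either a control or had spent 24 h with an antagonist of retinoic acid receptor gamma, LY2955303 (named RARγi-1) or MM11253 (named RARγi-2), which differ in structure, to ask which genes respond when this receptor is blocked. There was 1 library for each of the 6 conditions, so no difference has a replicate check, no p-value is given, and the read depth behind the TPM values is unknown. The doses of the sequenced cultures and the vehicle of the controls are not given in the sources used here, and a treatment entry reads RARγi-1 for both libraries titled RARγi-2, so the titles set the groups.

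Heat shock proteins bind unfolded stretches of other proteins and keep them from clumping. HSP70 proteins hold and release their clients in an ATP cycle that J-domain proteins start and nucleotide exchange factors finish, HSP90 proteins take over clients that are nearly folded, such as kinases and steroid receptors, and small heat shock proteins hold misfolded proteins until HSP70 arrives. Many of these genes are switched on in damaged or heated cells by the transcription factor HSF1, which binds as a trimer to heat shock elements, inverted repeats of the unit GAA. Tumour cells are known to keep the level of these chaperones high.

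The heat shock element is shown first because it is the sequence feature for which the family is known. The genes were chosen by symbol as members of that family, so matches were likely from the start and are no independent finding. The letters GAANNTTC, which read the same on both strands, were searched in the 250 bases before each start site in the RefSeq promoter table of GRCh38.p14. Of the 10 genes, 9 were searched in this way. HSF1 was left out of the search, so whether it holds a match is unknown. The counts below therefore describe 9 of the genes and not all 10. The match was present in 7 of these 9, and not in the windows of BAG3 and HSPH1, against 7.05% of all 27305 genes in the table. The 9 genes had 14 windows. The match lay in 1 window of each of the 7 genes, against 5.78% of all 35116 windows. A longer match, in which a further alternating unit follows or precedes GAANNTTC at the same spacing, was present for HSPA8, HSP90AA1 and HSP90AB1, against 0.441% of all windows and 0.557% of all genes. The 30 bases around the match nearest to the start site are given below for these 7 genes and for HSPA6, a strictly heat-inducible HSP70 gene, from 5′ to 3′ on the strand of the gene, with the letters of all matches in capitals.
HSPA1A (chr6:31815426-31815455, plus strand): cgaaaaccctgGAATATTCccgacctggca
HSPA1B (chr6:31827622-31827651, plus strand): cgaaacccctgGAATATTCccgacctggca
HSPA8 (chr11:123062170-123062199, minus strand): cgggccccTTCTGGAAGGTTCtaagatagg
HSP90AA1 (chr14:102087111-102087140, minus strand): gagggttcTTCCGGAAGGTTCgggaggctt
HSP90AB1 (chr6:44247823-44247852, plus strand): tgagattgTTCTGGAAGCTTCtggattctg
DNAJB1 (chr19:14518426-14518455, minus strand): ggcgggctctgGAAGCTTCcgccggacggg
HSPB1 (chr7:76302480-76302509, plus strand): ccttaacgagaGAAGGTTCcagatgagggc
HSPA6 (chr1:161524458-161524487, plus strand): cggaaaggTTCGCGAAAGTTCgcggcggcg
The matches shown begin 106 bases before the start site in HSPA1A and 105 in HSPA1B, 55 in HSPA8, 88 in HSP90AA1, 112 in HSP90AB1, 47 in DNAJB1, 182 in HSPB1 and 74 in HSPA6. In the GENCODE 29 annotation the stretches of HSPA1A, HSPA1B, HSPB1 and HSPA6 lie before the gene, those of HSP90AB1 and DNAJB1 in an intron of a longer transcript, and those of HSPA8 and HSP90AA1 overlap an exon of another transcript. A match is a run of letters, and binding of HSF1 was not measured.

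**Figure D1:**
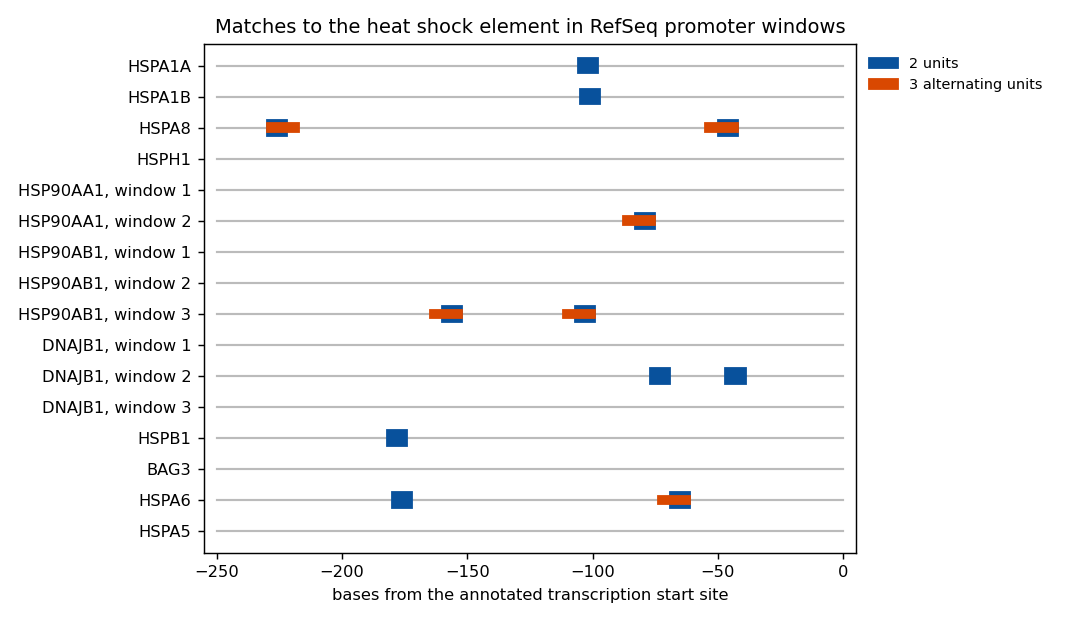
Positions of GAANNTTC and of the longer match with 3 units in the 250 bases before RefSeq start sites (horizontal axis, bases from the start site). There is 1 line per promoter window, so HSP90AA1, HSP90AB1 and DNAJB1 have more than 1 line. HSPA8, HSP90AB1, DNAJB1 and HSPA6 each hold more than 1 match to GAANNTTC.

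The inducible HSP70 pair, HSPA1A and HSPA1B, made the largest changes of the 10 genes in 3 of the 4 comparisons. Both rose more than 2-fold over the control with RARγi-2 in either line, and both rose just over 2-fold with RARγi-1 in PK-1. In Panc-1 treated with RARγi-1 they were 1.07-fold and 1.10-fold of the control, and HSF1, HSP90AB1 and HSPH1 lay farther from it. The small heat shock protein HSPB1 rose past 2-fold in PK-1 treated with RARγi-2 and stayed near its control level in Panc-1. HSPA8, HSP90AA1 and HSP90AB1, the most abundant of the 10 in the PK-1 control, lay below the control in both treated PK-1 libraries, by less than 2-fold.

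Of the 10 genes, 2 rose more than 2-fold in PK-1 with RARγi-1, where 9.91% of all tested entries did so. With RARγi-2 in PK-1 3 rose, against 12.9% of entries. In Panc-1 none rose with RARγi-1, against 7.86% of entries, and 2 rose with RARγi-2, against 9.02%. None of the 10 fell more than 2-fold in any comparison, where 5.2%, 13.5%, 6.51% and 12.0% of entries fell in PK-1 with RARγi-1 and RARγi-2 and in Panc-1 with RARγi-1 and RARγi-2. With a list of 10 genes such shares are coarse. Past 2-fold with both inhibitors were 2 of the genes in PK-1, where 7.95% of entries were, and none in Panc-1, where 5.95% were. The median log2 fold change of the 10 genes was -0.01, 0.34, 0.10 and 0.51 in the same order, and that of all tested entries was 0.13, 0.00, 0.05 and 0.00. All fold changes set TPM + 1 of a treated library against TPM + 1 of its line's control, and both comparisons within a line share that control. Rescaling the libraries by the median of ratios moved the log2 fold changes by -0.12 in PK-1 with RARγi-1 and by less than 0.1 elsewhere. That shift brings HSPA1A and HSPA1B to just under 2-fold in PK-1 with RARγi-1.

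**Figure D2:**
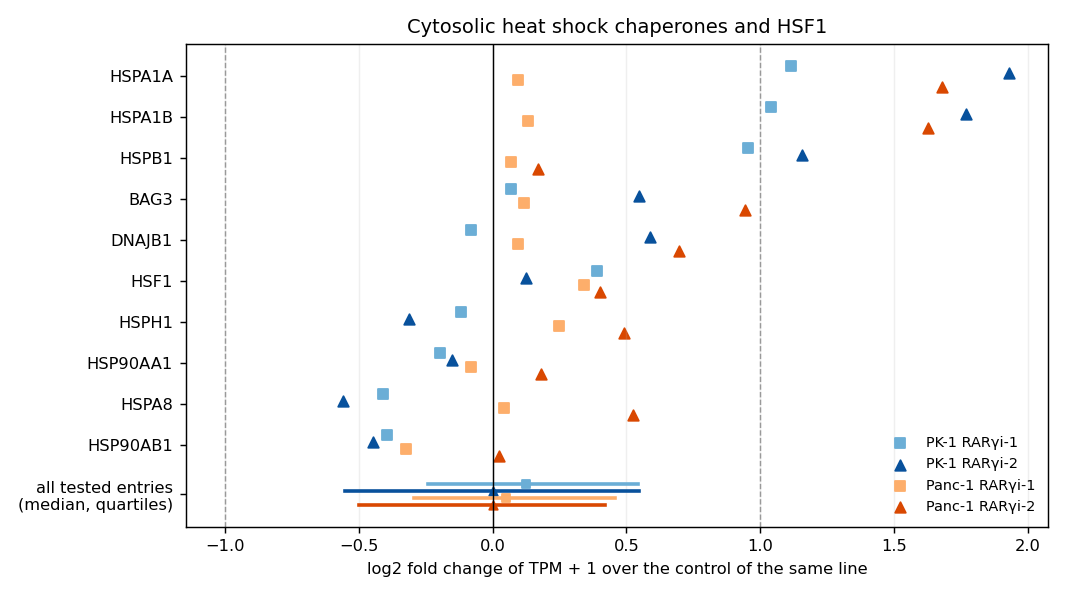
Log2 fold change of TPM + 1 over the control of the same line (horizontal axis) for the 10 genes in the 4 comparisons, 1 point per treated library, with the median and quartiles of all tested entries in the lowest row and dashed lines at 2-fold. HSPA1A and HSPA1B lie past 2-fold in 3 of the 4 comparisons, and the points of Panc-1 treated with RARγi-1 lie between -0.32 and 0.34.

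HSPA1A and HSPA1B encode the stress-inducible HSP70 of the cytosol. HSPA1A was at 347 TPM in the PK-1 control, 753 TPM under RARγi-1 and 1326 TPM under RARγi-2, and at 307 TPM in the Panc-1 control, 328 TPM under RARγi-1 and 984 TPM under RARγi-2. Its levels therefore stepped up with each inhibitor in PK-1, while in Panc-1 the control and the RARγi-1 library were close together and the RARγi-2 library stood apart. On the log2 scale HSPA1A rose by 1.11 with RARγi-1 and by 1.93 with RARγi-2 in PK-1, and the Panc-1 values were 0.10 and 1.68. In a bulk library, a change in the RNA of each cell and a change in the share of cells that carry it cannot be told apart.

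HSPA1B followed the same order at a lower level. It was at 93.3, 193 and 319.99 TPM in the PK-1 control, RARγi-1 and RARγi-2 libraries, and at 71.4, 78.4 and 222 TPM in those of Panc-1. Its log2 fold changes were 1.04 and 1.77 for PK-1, with RARγi-1 first, while Panc-1 gave 0.13 and 1.63. The ratio of HSPA1A to HSPA1B lay between 3.72 and 4.42 in all 6 libraries, so the pair kept nearly the same proportion while its sum ran from 378 to 1646 TPM.

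The 2 genes are neighbours on chromosome 6, 9789 bases apart, and HSPA1B is annotated with a single exon. Of the runs of 50 bases in the coding transcripts of HSPA1A, 71.3% also occur in those of HSPA1B, and of 190 promoter bases lined up on the match shown above 181 were identical. How reads that fit both genes were shared out is not given in the sources used here, so the single values of HSPA1A and HSPA1B are uncertain and their sum is the firmer measure. The sum was 441, 946 and 1646 TPM in the PK-1 control, RARγi-1 and RARγi-2 libraries and 378, 407 and 1207 TPM in those of Panc-1. No run of 50 bases of HSPA1A occurs in HSPA8.

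HSPA8 encodes the constitutive HSP70, which folds new proteins, strips clathrin from vesicles and guides proteins into chaperone-mediated autophagy. It was at 2245 TPM in the PK-1 control, 1691 TPM under RARγi-1 and 1525 TPM under RARγi-2, and at 2618 TPM in the Panc-1 control, 2697 TPM under RARγi-1 and 3768.5 TPM under RARγi-2. It was thus lower in both treated PK-1 libraries than in the control, and higher in the RARγi-2 library of Panc-1 than in the other two of that line. Its log2 fold changes were -0.41 and -0.56 for PK-1, with RARγi-1 first, and 0.04 and 0.53 for Panc-1, none past 2-fold, and the 0.04 turns to -0.04 when libraries are rescaled by the median of ratios.

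In PK-1 the inducible pair rose while the constitutive HSPA8 lay lower. HSPA1A and HSPA1B together amounted to 0.196 of the HSPA8 level in the PK-1 control, 0.559 with RARγi-1 and 1.08 with RARγi-2. In Panc-1 the same ratio was 0.144, 0.151 and 0.320. The PK-1 library treated with RARγi-2 was the only one of the 6 in which the inducible pair exceeded HSPA8. All 3 genes together gave 2685.5, 2637.5 and 3171 TPM in PK-1 and 2997, 3104 and 4975 TPM in Panc-1. The summed message of these 3 genes thus differed less between the PK-1 libraries than its makeup did.

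**Figure D3:**
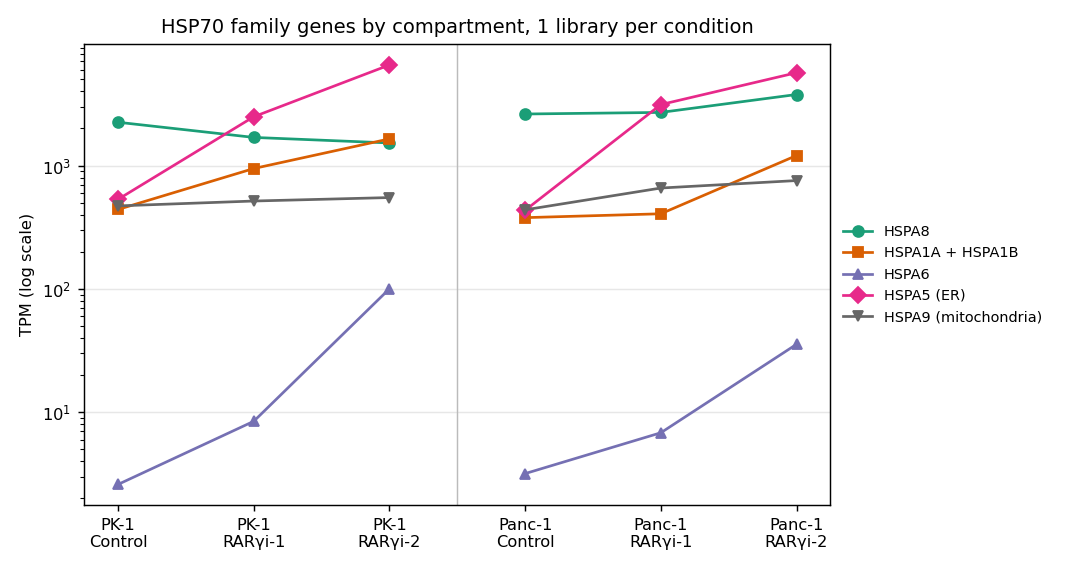
TPM (vertical log axis) of HSPA8, the sum of HSPA1A and HSPA1B, HSPA6, the ER gene HSPA5 and the mitochondrial gene HSPA9 in the 6 libraries (horizontal axis), 1 point per library. The sum exceeds HSPA8 only in PK-1 treated with RARγi-2, and HSPA6 runs from 2.60 to 100.15 TPM.

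HSPA6, a further cytosolic HSP70 gene that is nearly silent in unstressed cells, was not one of the 10 and belongs to the list of other HSP70 and HSP110 genes. It was at 2.60 TPM in the PK-1 control, 8.44 TPM under RARγi-1 and 100.15 TPM under RARγi-2, and at 3.18, 6.82 and 35.6 TPM in the Panc-1 libraries. The control levels were low in both lines and the RARγi-2 libraries were the highest in each. This gave log2 fold changes of 1.39 and 4.81 for PK-1 and 0.90 and 3.13 for Panc-1, in each case the largest of that list of 6 genes. Its pseudogene HSPA7, with which 45.5% of its runs of 50 bases are shared, was listed at the floor of 1 TPM in all 6 libraries. In the same list HSPA2, which is best known from spermatogenesis, was lowest on the mean of the 4 log2 fold changes, at -0.21 and -0.31 for PK-1 and at -1.12 and -1.19 for Panc-1. Its Panc-1 levels were near the floor, at 6.17 TPM in the control, 2.30 TPM under RARγi-1 and 2.15 TPM under RARγi-2. In PK-1 alone HSPA14 was lower, at -0.82 and -1.24.

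HSPH1 encodes HSP110, a distant HSP70 relative that acts as a nucleotide exchange factor and helps HSP70 to pull proteins out of aggregates. Its TPM was 129, 118 and 103 in the PK-1 control, RARγi-1 and RARγi-2 libraries, and 104, 123 and 146 in those of Panc-1. The order of the 3 libraries was thus reversed between the lines. In log2 fold change, PK-1 gave -0.12 and -0.31 while Panc-1 gave 0.25 and 0.49. Of all tested entries, 5.51% lay, like HSPH1 and HSPA8, below the control with both inhibitors in PK-1 and above it with both in Panc-1. Whether the lines differ was not tested.

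DNAJB1 encodes HSP40, the J-domain protein that hands clients to HSP70 and works with HSPH1 in taking aggregates apart. It was at 171 TPM in the PK-1 control, 161 TPM under RARγi-1 and 257 TPM under RARγi-2, and at 180.02, 192 and 292 TPM in the Panc-1 libraries. In both lines the RARγi-2 library was highest, and the control and RARγi-1 libraries were close. For RARγi-1 the log2 fold change was -0.08 in PK-1 against 0.09 in Panc-1, and for RARγi-2 it was 0.59 against 0.70.

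BAG3 encodes a nucleotide exchange factor of HSP70 that joins it to HSPB8 and directs its clients to autophagy. It was at 92.3, 96.8 and 135 TPM in the PK-1 control, RARγi-1 and RARγi-2 libraries, and at 162, 175 and 311.5 TPM in those of Panc-1. Here too the RARγi-2 library was highest in each line and the RARγi-1 library lay near the control. With RARγi-1 the log2 fold change was 0.07 in PK-1 against 0.12 in Panc-1, and with RARγi-2 it was 0.55 against 0.94, the last just short of 2-fold. The 0.07 turns to -0.05 with the libraries rescaled by the median of ratios.

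HSPB1 encodes HSP27, a small heat shock protein that forms large assemblies, holds misfolded proteins without using ATP and binds actin. It was at 822 TPM in the PK-1 control, 1594.5 TPM under RARγi-1 and 1833 TPM under RARγi-2, and at 1104.5, 1158 and 1242 TPM in the Panc-1 libraries. The treated PK-1 libraries were close to each other and well above their control, and the 3 Panc-1 libraries spanned a narrow range. PK-1 gave log2 fold changes of 0.96 and 1.16, just below and just above 2-fold, while Panc-1 gave 0.07 and 0.17, where the 0.07 becomes -0.01 with the rescaling.

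HSP90AA1 and HSP90AB1 encode the stress-responsive and the constitutive HSP90 of the cytosol. HSP90AA1 was at 1693, 1476.5 and 1524 TPM in the PK-1 control, RARγi-1 and RARγi-2 libraries, and at 866, 819 and 983 TPM in those of Panc-1. HSP90AB1 was at 1618.5, 1232 and 1186 TPM in PK-1 and at 2461.5, 1967 and 2499.6 TPM in Panc-1. Both genes were highest in the control in PK-1, and in Panc-1 both had their lowest level with RARγi-1 and their highest with RARγi-2. In PK-1 the log2 fold changes of HSP90AA1 were -0.20 with RARγi-1 and -0.15 with RARγi-2, and those of HSP90AB1 were -0.39 and -0.45. In Panc-1 they were -0.08 and 0.18 for HSP90AA1, and -0.32 and 0.02 for HSP90AB1.

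The 2 forms differed more between the lines than between treatments. HSP90AA1 stood at 1.05 of the HSP90AB1 level in the PK-1 control and at 0.352 of it in the Panc-1 control, and in the treated libraries the ratio was 1.198 and 1.29 for PK-1, against 0.416 and 0.393 for Panc-1. Between the controls, log2 (TPM + 1) of HSP90AA1 was 0.97 higher in PK-1 and that of HSP90AB1 was 0.60 lower. BAG3 was 0.80 lower in PK-1 and HSPB1 0.43 lower, while HSPA1A was 0.18 higher and HSPA1B 0.38 higher.

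HSF1, the transcription factor named above, was at 105 TPM in the PK-1 control, 138 TPM under RARγi-1 and 115 TPM under RARγi-2, and at 125, 159 and 166 TPM in the Panc-1 libraries. All 4 treated libraries lay above their controls, in a range narrower than that of its known targets HSPA1A and HSPA6. RARγi-1 gave a log2 fold change of 0.39 in PK-1 against 0.34 in Panc-1, and RARγi-2 gave 0.12 against 0.40. HSF1 acts after activation of the existing protein, which RNA levels do not measure.

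**Figure D4:**
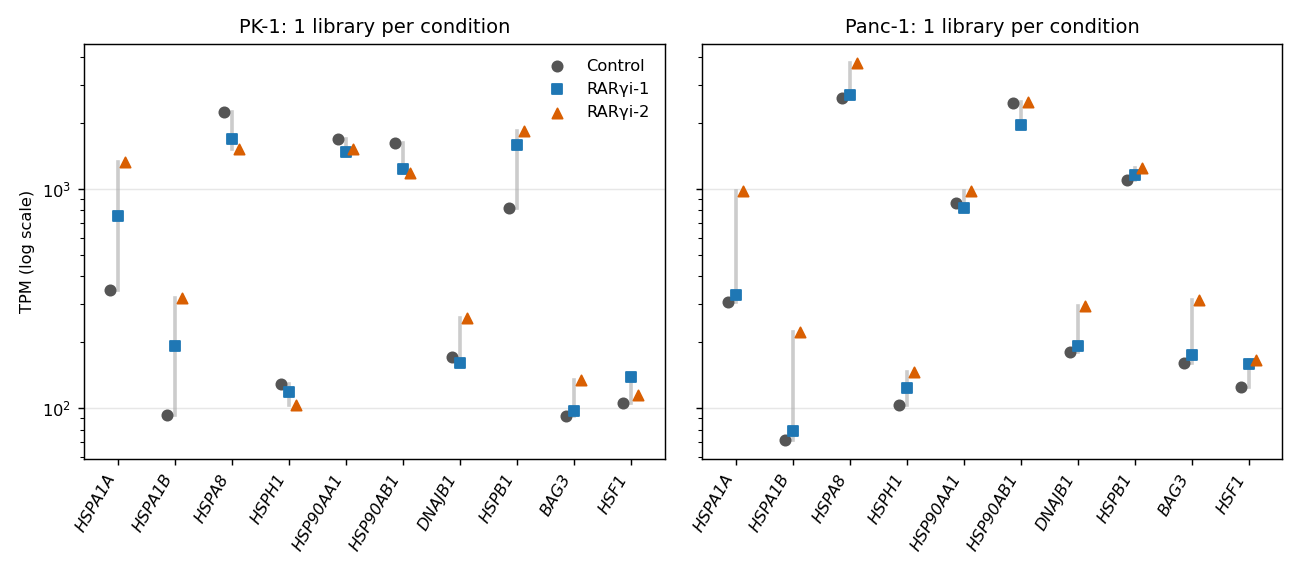
TPM (log axis) of the 10 genes in each of the 6 libraries, 1 point per library. HSPA8, HSP90AA1, HSP90AB1 and HSPB1 lie at or above 819 TPM in every library, and HSPH1, BAG3 and HSF1 lie between 92.3 and 311.5 TPM.

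Added up, the 10 genes held 7316 TPM in the PK-1 control, 7456 TPM under RARγi-1 and 8325 TPM under RARγi-2, and 7999, 7697 and 10616 TPM in the Panc-1 libraries. This is 0.732% to 1.06% of all TPM. The order of levels in the PK-1 control ran from HSPA8 through HSP90AA1, HSP90AB1, HSPB1, HSPA1A, DNAJB1, HSPH1 and HSF1 to HSPA1B and BAG3, the last 2 within about 1 TPM of each other. In the Panc-1 control HSPA8 and HSP90AB1 led, and HSPA1B was lowest.

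The libraries with RARγi-2 and RARγi-1 were also set side by side within each line, with the doses unknown. In PK-1, 6 of the 10 genes were higher with RARγi-2 than with RARγi-1, where 33.3% of all tested entries were, and none by more than 2-fold, where 1.38% were. In Panc-1 all 10 were higher with RARγi-2, where 33.4% of entries were, and HSPA1A and HSPA1B differed by more than 2-fold, where 0.725% did. Tested entries at the floor in both treated libraries of a line show no difference and count as not higher, which lowers these shares. The difference in log2 (TPM + 1) of HSPA1A was 0.81 in PK-1 against 1.58 in Panc-1, and that of HSPA1B was 0.73 and 1.49. Its median over the 10 genes was 0.12 in PK-1 against 0.41 in Panc-1, and over all tested entries -0.14 and -0.09. The spread of this difference over all tested entries, a robust SD, was 0.39 in PK-1 against 0.30 in Panc-1, and it includes what the inhibitors really change.

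Above the control in all 4 comparisons were HSPA1A, HSPA1B, HSPB1, BAG3 and HSF1, 5 of the 10 genes, where 30.0% of entries were. This share counts entries at the floor in both libraries of a comparison as not above. With the libraries rescaled by the median of ratios, 3 of the 10 remained above the control in all 4 comparisons, HSPA1A, HSPA1B and HSF1. None of the 10 was past 2-fold in all 4 comparisons, where 2.71% of entries rose and 2.19% fell in all 4.

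The partners of these chaperones moved little as groups. Of 18 cochaperones of HSP70 and HSP90, which load, time and release their clients, none rose past 2-fold in any comparison. The phosphatase PPP5C alone fell past it, in Panc-1 with RARγi-2, with a log2 fold change of -1.10, where 12.0% of all tested entries fell. Between 7.86% and 12.9% of entries rose past 2-fold in a comparison. The median log2 fold changes of the 18 cochaperones were -0.05, -0.26, 0.00 and -0.02. The highest on average was CDC37L1, at 0.28 and 0.22 for PK-1 and at 0.62 and 0.71 for Panc-1. Of the 5 other BAG genes none passed 2-fold, with BAG6 the highest on average, between -0.06 and 0.59, and BAG4 the lowest, between -0.93 and -0.01. Of the 8 other small heat shock protein genes 1 was tested, HSPB8, the partner of BAG3, at 143, 197 and 243 TPM in the PK-1 libraries and at 6.87, 8.57 and 13.01 TPM in those of Panc-1. None of its 4 log2 fold changes, from 0.28 to 0.83, passed 2-fold.

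Other cytosolic J-domain genes, 8 in number, rose past 2-fold in 1, 2, 1 and 3 cases in the 4 comparisons, and none fell past it. The comparisons are taken in the order PK-1 RARγi-1, PK-1 RARγi-2, Panc-1 RARγi-1 and Panc-1 RARγi-2. In this order 9.91%, 12.9%, 7.86% and 9.02% of all tested entries rose past 2-fold, and 5.2%, 13.5%, 6.51% and 12.0% fell past it. DNAJA4 was the highest on average, at 7.23, 13.2 and 19.03 TPM for PK-1 against 7.24, 23.1 and 30.1 TPM for Panc-1. In PK-1 alone DNAJB2 rose more, with log2 fold changes of 1.46 and 2.14, and it was the only one past 2-fold there with RARγi-1. It stayed within 2-fold in Panc-1, at 0.62 and 0.93. DNAJA2 was the lowest, with log2 fold changes between -0.49 and -0.12. All 8 subunits of TRiC, the ring-shaped chaperonin that folds actin and tubulin, lay below the control in PK-1, with medians of -0.49 and -0.72, and 1 of them, CCT2, fell past 2-fold with RARγi-2, at -1.18. In Panc-1 7 of the 8 were below the control, with medians of -0.29 and -0.34, and the other, TCP1, had log2 fold changes of 0.02, which turns to -0.06 with the rescaling, and 0.18. Of 6 prefoldin genes, whose product passes clients to TRiC, PFDN2 rose past 2-fold in Panc-1, at 1.27 and 1.39, and not in PK-1, at 0.71 and 0.66, while PFDN6 was the lowest on average, between -0.82 and -0.33.

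Of 4 tested genes from a list of 5 for the HSF family and its partners, HSF4 rose past 2-fold in PK-1, from 3.83 TPM to 9.51 and 10.3 TPM, and was at 7.45, 8.01 and 9.32 TPM in Panc-1. A list of 20 other heat-inducible genes, which also holds HSPA6, had 19 tested genes. Of these 2, 4, 2 and 4 rose past 2-fold in the 4 comparisons, where 9.91%, 12.9%, 7.86% and 9.02% of all tested entries did. HSPE1 fell past it in PK-1 with RARγi-2, at -1.51, where 13.5% of entries fell. The medians of the 19 genes were -0.13, -0.25, 0.00 and 0.18. Among them ZFAND2A, which encodes a protein that binds the proteasome in stressed cells, rose past 2-fold in all 4 comparisons, as 2.71% of entries did. It was at 46.0, 157 and 311 TPM in the PK-1 control, RARγi-1 and RARγi-2 libraries and at 37.0, 229 and 427 TPM in those of Panc-1. Its log2 fold changes of 1.75, 2.73, 2.60 and 3.49 thus passed 2-fold also in Panc-1 with RARγi-1, where HSPA1A and HSPA1B did not.

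The chaperones of the endoplasmic reticulum (ER), where secreted proteins fold, are set beside the cytosolic ones because each class has its own HSP70 and HSP90. Of 18 ER genes, 8, 16, 7 and 15 rose past 2-fold in the 4 comparisons and none fell, with medians of 0.92, 1.49, 0.89 and 1.73. In the same order 9.91%, 12.9%, 7.86% and 9.02% of all tested entries rose past 2-fold. HSPA5, the ER HSP70 known as BiP, was at 532, 2487.5 and 6542 TPM in PK-1 and at 434, 3123 and 5661 TPM in Panc-1. Its level was 0.237 of that of HSPA8 in the PK-1 control and 1.47 and 4.29 of it with RARγi-1 and RARγi-2, and it was 0.166, 1.16 and 1.502 of it in Panc-1. HSP90B1, the ER HSP90, was at 922, 1673 and 2694 TPM in PK-1, against 629, 1186 and 2449 TPM in Panc-1. It thus rose past 2-fold with RARγi-2 in both lines, while the cytosolic HSP90AA1 and HSP90AB1 stayed within 2-fold. HYOU1, DNAJB9, DNAJC10, MANF and HERPUD1 are genes of ER folding and of the disposal of misfolded ER proteins. They rose past 2-fold with HSPA5 in all 4 comparisons, as 2.71% of entries did. The window of HSPA5 held no match to GAANNTTC.

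Of 11 genes for mitochondrial chaperones and proteases, 1, 2, 2 and 2 rose and 1, 3, 0 and 0 fell past 2-fold, with medians of -0.32, -0.49, 0.37 and 0.35. In the same order 9.91%, 12.9%, 7.86% and 9.02% of all tested entries rose past 2-fold, and 5.2%, 13.5%, 6.51% and 12.0% fell past it. HSPA9, the mitochondrial HSP70, was at 471, 516 and 550.3 TPM in PK-1 and at 438, 657 and 756 TPM in Panc-1. TRAP1, the mitochondrial HSP90, was at 276, 126.5 and 82.0 TPM in PK-1, falls past 2-fold, against 152, 133 and 109 TPM in Panc-1. GRPEL2, a nucleotide exchange factor of mitochondrial HSP70, rose in all 4 comparisons, by 1.22, 1.13, 1.11 and 1.03 on the log2 scale. Past 2-fold in all 4 comparisons were 2.71% of entries.

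**Figure D5:**
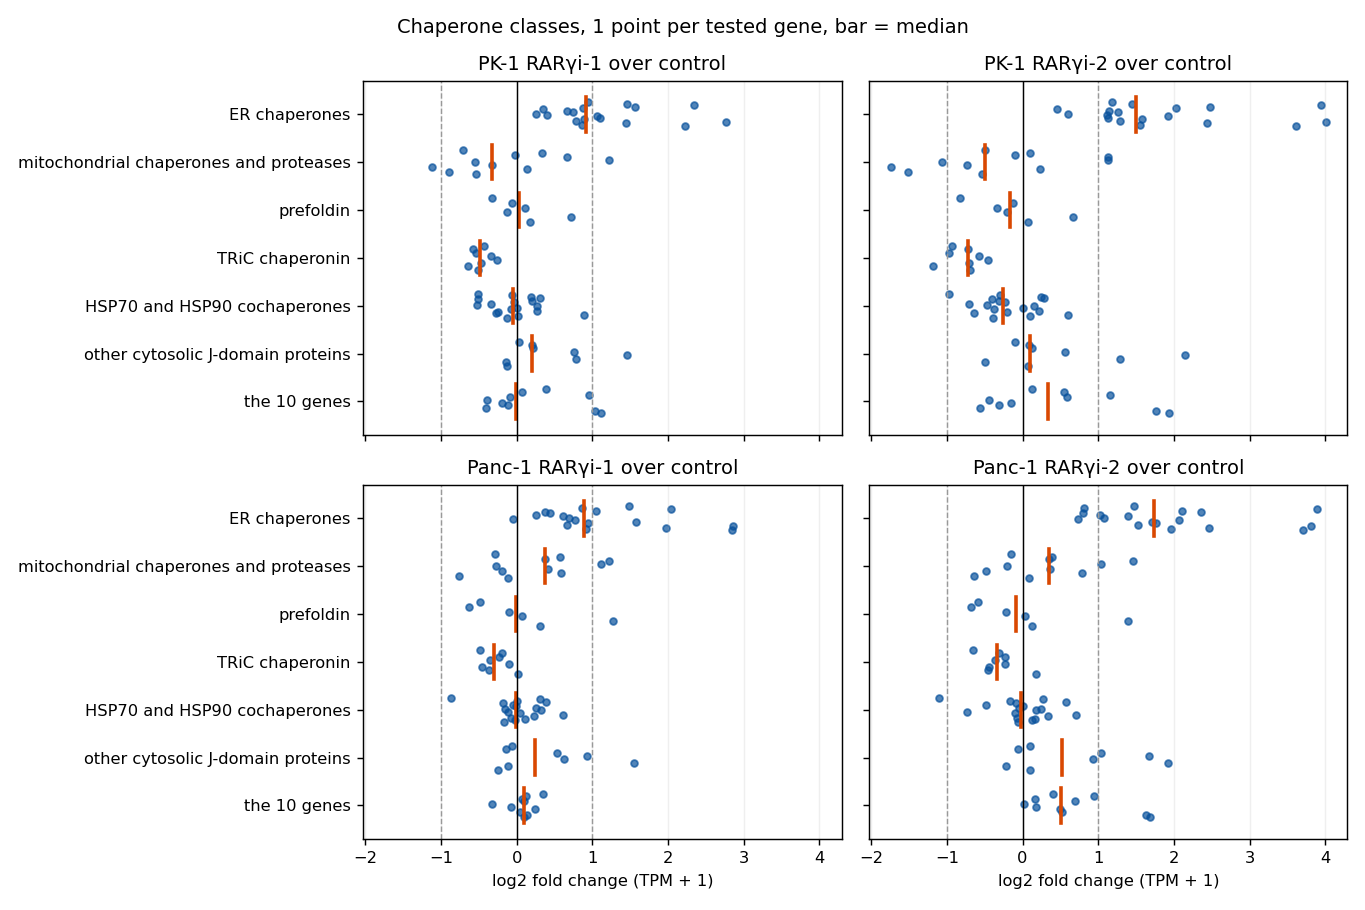
Log2 fold change of TPM + 1 over the control (horizontal axis) for the genes of each chaperone class in the 4 comparisons, 1 point per gene, with the class median marked. The ER class has medians of 0.89 to 1.73, and the 10 cytosolic genes of -0.01 to 0.51.

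Among the entries with the pattern closest to that of HSPA1A, by Euclidean distance over the 4 log2 fold changes among 10618 other entries that reached 10 TPM, were RABAC1 at 0.54, HIST1H2BD at 0.58 and SELENOK at 0.58. Closest to HSPA8 were GAR1 at 0.14, CDC26 at 0.14, MIR3654 at 0.18 and PES1 at 0.18. The distances rest on 4 values from 6 libraries.

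Checks on the cells touch all these values. The 8 ductal markers summed to 22986, 15095 and 14824 TPM in the PK-1 control, RARγi-1 and RARγi-2 libraries and to 8449, 1805 and 1505 TPM in those of Panc-1. In PK-1 the keratins KRT8 and KRT18 went from 5967 and 6408 TPM to between 3149.5 and 4350.1 TPM, and KRT7 fell past 2-fold, from 5663 TPM to 2297 and 2470.4 TPM. KRT17 rose past 2-fold there with RARγi-1, by 1.70 on the log2 scale, and CDH1 with RARγi-2, by 1.17. In Panc-1 KRT8, KRT18 and KRT19 fell past 2-fold with both inhibitors, CDH1 and KRT17 were listed at the floor, and EPCAM was at 9.18 to 19.4 TPM. KRT7 was at only 2.40 to 4.19 TPM in Panc-1. MUC1 was at 1.02 to 2.48 TPM in PK-1, near the floor, and at 18.2 to 29.3 TPM in Panc-1. Of 14 markers of acinar, islet, stromal, endothelial and immune cells, 10 were at the floor in all 6 libraries, among them PTPRC, PECAM1, INS and DCN. Counting floored genes at 1 TPM, the 14 summed to 38.3, 134 and 114 TPM in the PK-1 control, RARγi-1 and RARγi-2 libraries and to 312, 298 and 257 TPM in those of Panc-1. In PK-1 3 of them, PRSS1, COL1A1 and CD68, lay past 2-fold above the control with both inhibitors, beside the rises of HSPA1A and HSPA1B. In Panc-1 COL1A1 fell from 52.4 TPM to 4.65 and 2.10 TPM. The part of these markers and of the keratins in the chaperone values was not tested. Between 74.6% and 75.6% of entries per library were at the floor.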

How the data were processed

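RNA was prepared with a stranded mRNA kit from the 6 cultures. The files that the authors deposited give TPM as log2, with a floor: nothing lies under 1 TPM. The submitters' processing notes name the build hg38, and the aligner, counting method and annotation are not given in the sources used here. Libraries were grouped by title. TPM was recovered as a power of 2, and log2 fold changes used a pseudocount of 1 TPM over the control of the same line (Python 3.11.15, pandas 2.3.3). Entries with 5 TPM in at least 1 library were tested against 2-fold. TPM keeps no depth, so no interval is given. Alternatives were no pseudocount, one of 0.1 TPM, rescaling by the median of ratios, a loose filter, symbols summed, HSPA1A and HSPA1B added, and a threshold of 1.5-fold. The calling of changes was tested on simulated data, with made-up changes well past 2-fold. The noise in them was smaller than the spread between treated libraries, so calls close to 2-fold were not tested. Genes named are the 10 members, the genes of each list past 2-fold in all 4 comparisons or else its highest and lowest on average, the HSP70 and HSP90 genes of the ER and mitochondria, and the 4 nearest patterns, of which 1 is not reported here. HSPA7, HSPA14, HSPE1, DNAJB2 and the cell markers were singled out after their values were seen. The members and lists were chosen with earlier results of these data known. Promoter windows are from RefSeq, GRCh38.p14, and exons from GENCODE 29.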

Additional observations from a re-analysis of the deposited data

Results flagged for a closer look

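Some genes lay below the control with both inhibitors in PK-1 and above it with both in Panc-1, as 5.51% of all tested entries did, and the difference between the lines was not tested. HSPA8 had log2 fold changes of -0.41 and -0.56 for PK-1 against 0.0426 and 0.53 for Panc-1, the 0.0426 turning to -0.04 after rescaling by the median of ratios. HSPH1 had -0.12 and -0.31 for PK-1 against 0.25 and 0.49 for Panc-1. TCP1, a TRiC subunit, had -0.50 and -0.70 for PK-1 against 0.0193 and 0.18 for Panc-1, the 0.0193 turning to -0.06 after rescaling. HSF2BP had -0.75 and -0.75 in PK-1, where both treated libraries were at the floor of 1 TPM, against 0.0588 and 0.36 for Panc-1, the 0.0588 turning to -0.01 after rescaling.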

How the results depend on the processing

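The 40 log2 fold changes of the 10 genes moved by less than the spread between the treated libraries of a line under each of 5 settings (no pseudocount, a pseudocount of 0.1 TPM, rescaling by the median of ratios, summed symbols, and HSPA1A and HSPA1B added). The number of genes past 2-fold in PK-1 with RARγi-1 went from 2 to 0 with the rescaling, since HSPA1A and HSPA1B lie close to the threshold there. It became 1 with HSPA1A and HSPA1B added, as did that in Panc-1 with RARγi-2, because the pair then counts as 1 gene. With a threshold of 1.5-fold, the number was 3 and 4 in PK-1 with RARγi-1 and RARγi-2, from 2 and 3, and 0 and 4 in Panc-1, from 0 and 2. No value changed direction past a threshold. A single library per condition and an unknown depth limit every difference given. No paired analysis was possible because each condition has 1 library and the numbers in the titles name the inhibitors.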
